A study of Canis lupus familiaris with 4 samples.

Results

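Matrix metalloproteinases and the urokinase system break down the matrix around cells, and 10 of their genes were described here across the arrays of a HIF2α knockdown experiment. The genes were *MMP13*, *MMP9*, *MMP2*, *MMP3*, *MMP14*, *PLAU*, *PLAUR*, *TIMP1*, *TIMP2* and *TIMP3*, taken by gene symbol. Of these, 9 have a probe set that carries 1 gene symbol, among 15115 such genes on the array, and they hold 17 probe sets. *PLAUR*, the urokinase receptor gene, has none and is not analysed here. The list was chosen by symbol with results of these arrays known, among them the knockdown differences of *MMP13* and *MMP9* in normoxia. The differences are therefore given as descriptions, with no test.

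The cells were MDCK strain II cells, a canine kidney epithelial line, kept in normoxia (16% O2) for 24 h before a further 24 h in hypoxia (1% O2) or normoxia. The times are those of the study's methods for RNA, and its figure legends give a longer hypoxia for PCR measurements. HIF2α-KD cells express a short hairpin RNA against *EPAS1*, the HIF2α gene, from a retrovirus with puromycin selection. Control cells, called wild type in the sample labels, were taken as the cells that carry the empty retroviral cassette in the study. Each of the 4 conditions (HIF2α-KD and control cells, in hypoxia and in normoxia) was measured on 1 Affymetrix canine array, and the study names HIF2α-KD#1 as the line for its normoxic arrays. With 1 array per condition a difference has no replicate error, and p-values for a pair of arrays cannot be given.

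Matrix metalloproteinases are zinc-dependent enzymes made as inactive precursors, which cleave collagens, laminins and other matrix proteins as well as growth factors and receptors. Urokinase, the product of *PLAU*, turns plasminogen into plasmin, which digests fibrin and can activate several metalloproteinase precursors. The TIMP proteins bind to the active enzymes and block them. Tubule cells of the kidney are known to make urokinase, and metalloproteinase activity is known to take part in tubule formation by MDCK cells in collagen gels.

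The target gene *EPAS1* was read first. Its brightest probe set had an intensity of 32.6 on the HIF2α-KD array and 116 on the control array in hypoxia, and in normoxia of 47.9 on the array labelled HIF2α-KD against 44.6 in control cells. At this dim probe set, in hypoxia alone did the knockdown label go with less *EPAS1* signal, and each direction in normoxia below is drawn from the array labelled HIF2α-KD. *VEGFA*, a HIF target gene, was lower under the label at both oxygen levels, with 2137 and 3752 on the HIF2α-KD and control arrays in hypoxia, and in normoxia 535 under the HIF2α-KD label against 1447 in control cells. *NDRG1* was 2-fold lower in hypoxia, with a knockdown difference of -1.52 there and of 0.18 in normoxia. Its normoxic values, 18.4 under the HIF2α-KD label and 14.4 in control cells, were at the background level defined below, so no direction is given there. Of 10 listed HIF target genes, 8 were kept, and all 8 were higher in hypoxia than in normoxia under the HIF2α-KD label and in control cells. Of all genes kept, 53.1% and 53.2% were higher in these comparisons. The hypoxia differences were 3.55 under the HIF2α-KD label and 4.59 in control cells for *ADM*, 2.23 and 3.92 for *NDRG1*, 2.82 and 3.55 for *ANKRD37*, 2.91 and 3.25 for *EGLN3*, 3.09 and 2.71 for *PDK1*, and 1.97 and 1.36 for *VEGFA*, on the log2 scale defined below. The hypoxia differences were smaller for *SLC2A1*, 0.77 and 0.84, and for *LDHA*, 0.73 and 0.52. The normoxic values of *EGLN3*, 19.1 under the HIF2α-KD label and 25.5 in control cells, were at the background level too. The sizes of the hypoxia differences of *NDRG1* and *EGLN3* are therefore uncertain. The remaining genes of that list, *CA9* and *BNIP3*, did not reach the level for being kept. The brightest probe set of *CA9* read 20.1 and 20.1 on the HIF2α-KD and control arrays in hypoxia. In normoxia it read 28.4 under the HIF2α-KD label and 26.3 in control cells. It passed the background level on 1 of the 4 arrays, so no direction is given for *CA9*. The epithelial keratin gene *KRT18* lay between 13256 and 13868 and *EPCAM*, for an epithelial adhesion molecule, between 10064 and 11719 on the 4 arrays. *PAX8*, a kidney lineage factor gene, was at the floor of 1 on each of them, and *PAX2* lay between 1.18 and 5.24. *CDH16*, also a kidney epithelium marker, was kept and lay between 89.1 and 134 at its brightest probe set. The remaining probe sets of *CDH16* lay between 3.08 and 13.65 and were not kept.

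Differences are those of log2(intensity + 16). On this scale the change of a dim gene comes out too small, and a difference of 1 is called 2-fold below. Reporter probe sets, which represent no canine gene, gave the background, with 95th percentiles between 20.6 and 27.2 on the 4 arrays. A probe set was kept where its highest intensity reached 28.64, the median of the table, and 12 of the 17 probe sets, in 7 of the 9 genes, were kept. Each of these 12 lay above 28.64 on all 4 arrays, so none was kept through a single high array. They were set against 9766 genes kept in all, each represented by its brightest kept probe set.

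*MMP13*, which encodes a collagenase that cleaves fibrillar collagen, is covered by 2 probe sets. The brighter had intensities of 860.4 on the HIF2α-KD array and 1181 on the control array in hypoxia, and in normoxia of 4263 on the array labelled HIF2α-KD against 526 in control cells. The other had 252 and 319.7 in hypoxia and 1336 and 141 in normoxia, in the same order of arrays. Both probe sets were highest on the normoxic array labelled HIF2α-KD and lowest on the control array in normoxia, with the hypoxic arrays between them.

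The knockdown difference of *MMP13* was -0.45 in hypoxia and 2.98 in normoxia at the brighter probe set, and -0.32 and 3.10 at the other. Of 9766 genes, 1 had a larger positive knockdown difference in normoxia. Hypoxia against normoxia gave -2.29 under the HIF2α-KD label and 1.14 in control cells, and -2.33 and 1.09 at the other probe set. In intensity, *MMP13* was 8.10-fold higher on the array labelled HIF2α-KD than in control cells in normoxia. The normoxic array with the HIF2α-KD label enters both of the larger differences. On the remaining 3 arrays the brighter probe set lay between 526 and 1181.

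*MMP9* encodes a gelatinase that cleaves denatured collagen and type IV collagen of basement membranes. Its brightest probe set had intensities of 58.9 and 69.7 on the HIF2α-KD and control arrays in hypoxia, and in normoxia of 228 on the array labelled HIF2α-KD against 29.25 in control cells. The order of the arrays was that of *MMP13*. The control value in normoxia lay just above the 95th percentile of the reporters on that array, 27.2, so the size of any difference from it is uncertain. The knockdown difference was -0.19 in hypoxia and 2.43 in normoxia. Hypoxia differed from normoxia by -1.70 under the HIF2α-KD label and by 0.92 in control cells.

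The other kept probe set of *MMP9* did not follow this pattern. Its intensities were 39.0 and 32.0 on the HIF2α-KD and control arrays in hypoxia, and in normoxia 38.2 on the array labelled HIF2α-KD against 30.4 in control cells. These values were dim, not far above the 95th percentiles of the reporters, 20.6 to 27.2. Whether this probe set detects *MMP9* was not tested. The knockdown difference of this probe set was 0.20 in hypoxia and 0.22 in normoxia. In normoxia the gap between the knockdown differences of these probe sets was 2.21. Over 4915 genes with at least 2 kept probe sets, the median gap between the brightest pair was 0.14 and the 95th percentile 0.60. The gap between the probe sets of *MMP13* was 0.12. With the mean of both probe sets in place of the brightest, the knockdown difference of *MMP9* was 0.00085 in hypoxia and 1.33 in normoxia, and its hypoxia difference under the HIF2α-KD label was -0.84, no longer 2-fold. A dim probe set of *MMP9* lay between 1 and 5.37 and was not kept.

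*MMP2*, the gene of the other gelatinase, was kept through 1 probe set of 3. Its intensities were 148 and 191 on the HIF2α-KD and control arrays in hypoxia, and in normoxia 138 on the array labelled HIF2α-KD against 124 in control cells. The values lay close together, and the control array in hypoxia was the highest. The knockdown difference was -0.34 in hypoxia and 0.14 in normoxia, and hypoxia differed from normoxia by 0.09 under the HIF2α-KD label and by 0.57 in control cells. The remaining probe sets of *MMP2* lay between 1 and 9.14, at the level of the reporters.

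*MMP3*, which encodes stromelysin, an enzyme that cleaves many matrix proteins and activates other metalloproteinases, did not reach the level for being kept. Its single probe set read 20.6 and 17.3 on the HIF2α-KD and control arrays in hypoxia, and in normoxia 25.2 on the array labelled HIF2α-KD against 17.2 in control cells. It passed the 95th percentile of the reporters on 1 of the 4 arrays, that labelled HIF2α-KD in normoxia. *MMP14* encodes a membrane-bound metalloproteinase that activates the precursor of the *MMP2* product. Its probe set read 13.2 and 13.8 on the HIF2α-KD and control arrays in hypoxia, and in normoxia 7.86 on the array labelled HIF2α-KD against 5.54 in control cells. It stayed below the 95th percentile of the reporters on each array. No direction is given for these 2 genes. In the order of genes in the RefSeq assembly UU_Cfam_GSD_1.0, *MMP13* and *MMP3* lie on chromosome 5 with *MMP12* between them, and *MMP1* follows *MMP3*. The brighter of 2 probe sets of *MMP1* lay between 4.02 and 8.80, and *MMP12* is not analysed here.

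**Figure D1:**
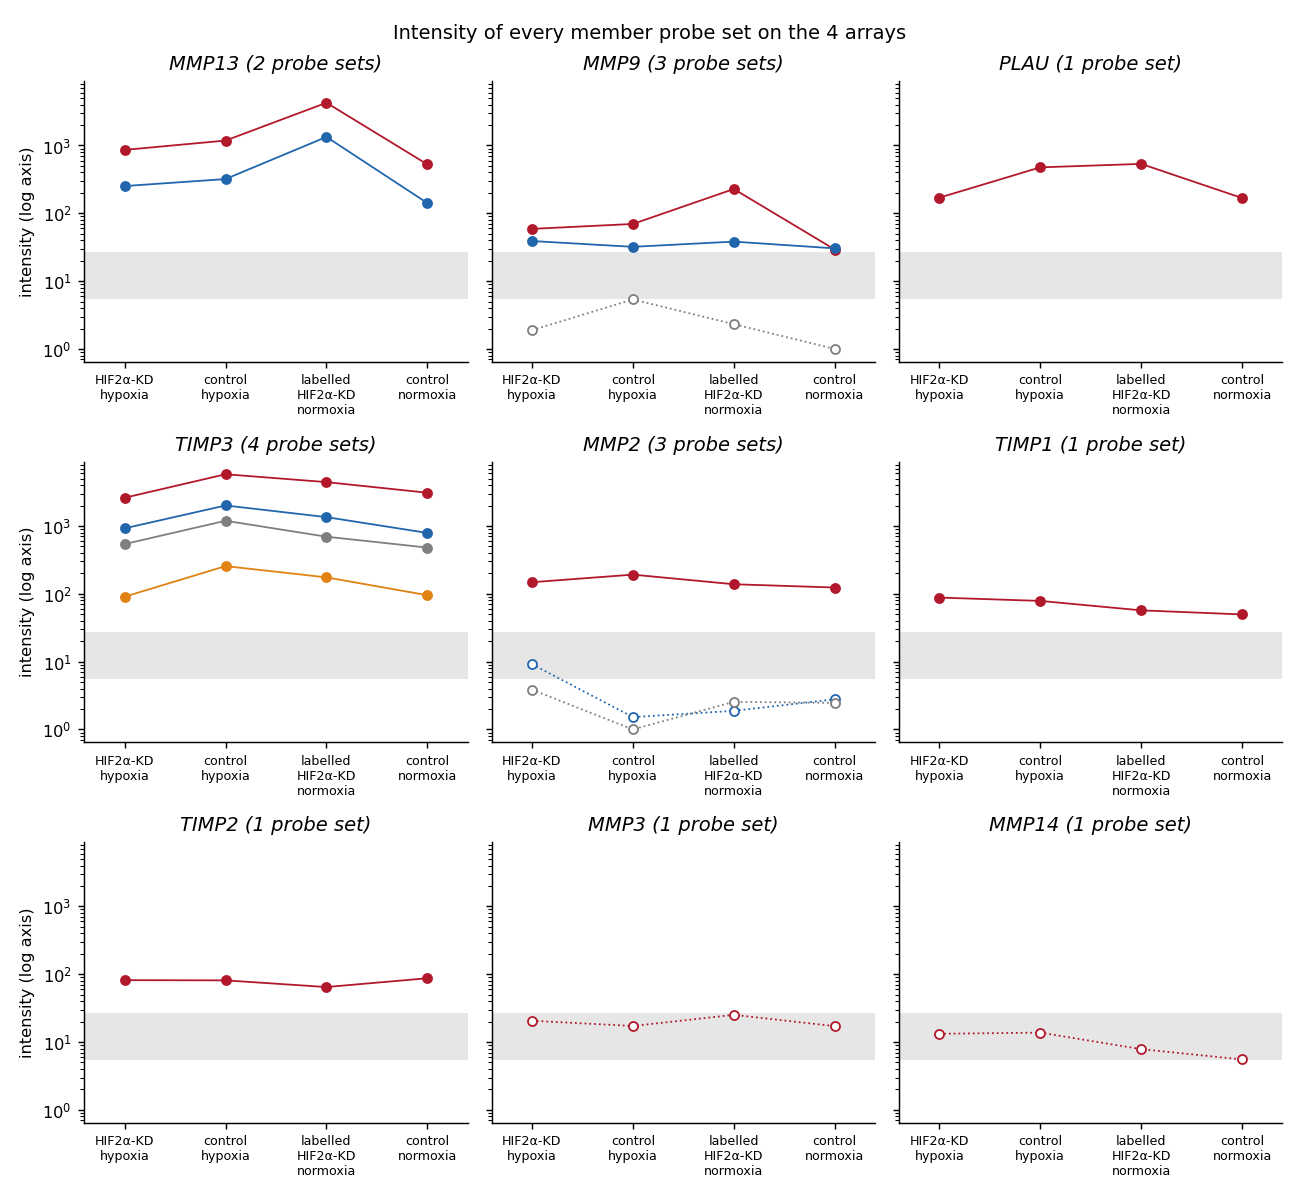
Intensity on a log axis of each of the 17 probe sets on the 4 arrays, 1 panel per gene and 1 colour per probe set, with 1 point per array and lines that join the points of a probe set. With 1 array per condition there are no error bars. Open points mark probe sets that were not kept, and grey shading spans the reporters, between their lowest median (5.48) and highest 95th percentile (27.2). *MMP13* and the brightest probe set of *MMP9* peak on the normoxic array labelled HIF2α-KD, and *PLAU* is high there and on the control array in hypoxia.

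*PLAU*, the urokinase gene, has 1 probe set. Its intensities were 169.8 on the HIF2α-KD array and 476 on the control array in hypoxia, and in normoxia 535 on the array labelled HIF2α-KD against 168 in control cells. *PLAU* was therefore high on one array at each oxygen level, and the 2 low values were nearly equal. The knockdown difference was -1.40 in hypoxia and 1.58 in normoxia. These differences share no array. Hypoxia differed from normoxia by -1.57 under the HIF2α-KD label and by 1.42 in control cells, again from separate arrays. Among 9766 genes, 13 had a lower knockdown difference in hypoxia and 17 a higher one in normoxia.

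*TIMP3* encodes an inhibitor of metalloproteinases that is bound to the matrix, and it is covered by 4 probe sets, all kept. The brightest had intensities of 2602 and 5778 on the HIF2α-KD and control arrays in hypoxia, and in normoxia of 4425 on the array labelled HIF2α-KD against 3085 in control cells. The second had 921 and 2002 in hypoxia and 1349 and 788 in normoxia, in the same order of arrays. The third read 540.2 and 1192 in hypoxia and 694 and 479 in normoxia, and the dimmest 90.5 and 256 in hypoxia and 174.5 and 95.2 in normoxia. In each of the 4 probe sets the hypoxic control array was the highest and the normoxic array labelled HIF2α-KD came next.

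The knockdown difference of *TIMP3* in hypoxia was -1.15 at the brightest probe set and -1.11, -1.12 and -1.35 at the others. In normoxia it was 0.52 at the brightest and 0.76, 0.52 and 0.78 at the others. Hypoxia against normoxia in control cells gave 0.90 at the brightest probe set, below the 2-fold mark, and 1.33, 1.29 and 1.29 at the others, above it. Under the HIF2α-KD label it gave -0.76 and -0.54, -0.35 and -0.84. The direction was the same in 4 of 4 probe sets in each comparison.

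*TIMP1* and *TIMP2* encode soluble inhibitors, and the *TIMP2* product also helps the *MMP14* product to activate the precursor of the *MMP2* product. *TIMP1* had intensities of 87.9 and 78.5 on the HIF2α-KD and control arrays in hypoxia, and in normoxia of 57.0 on the array labelled HIF2α-KD against 49.6 in control cells. The hypoxic values of *TIMP1* were above the normoxic ones, by 0.51 under the HIF2α-KD label and by 0.53 in control cells. Its knockdown difference was 0.14 in hypoxia and 0.15 in normoxia. *TIMP2* had 81.7 and 81.2 in hypoxia and 64.7 and 87.2 in normoxia, in the same order of arrays. Its knockdown difference was 0.01 in hypoxia and -0.35 in normoxia. The remaining differences of *TIMP2*, between hypoxia and normoxia, were 0.28 under the HIF2α-KD label and -0.09 in control cells. None of these reached 2-fold.

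**Figure D2:**
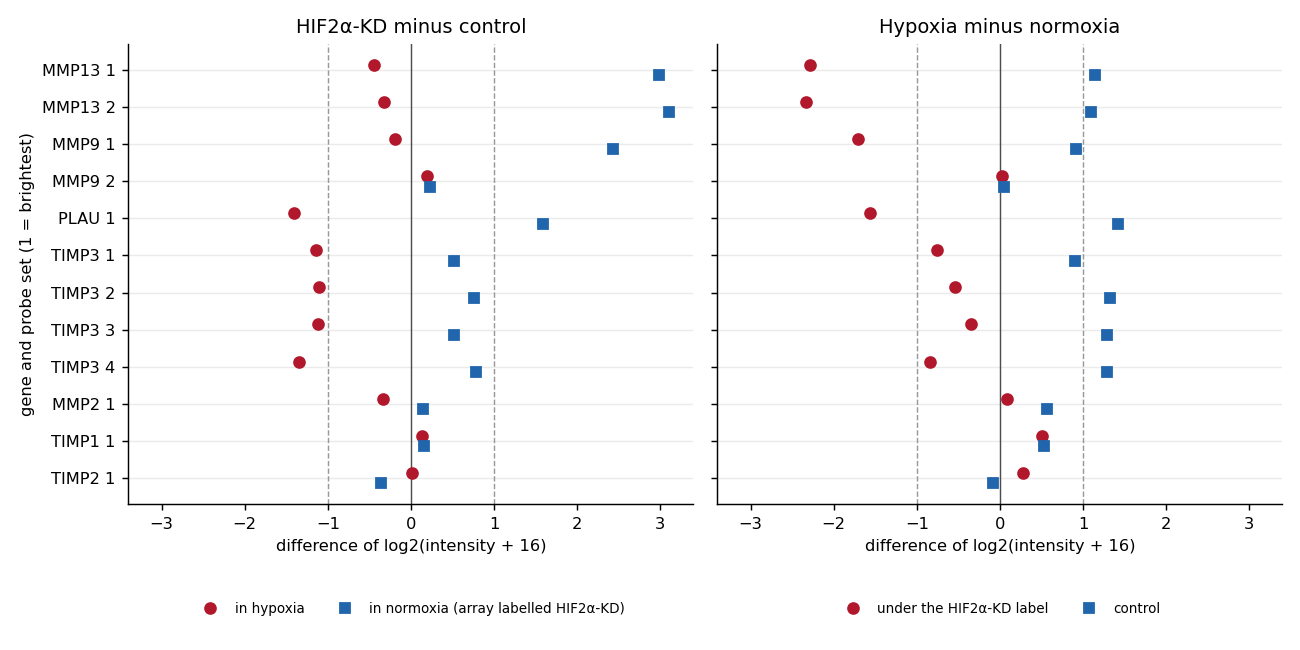
Difference of log2(intensity + 16) of the 12 kept probe sets, 1 row per probe set with 1 for the brightest of a gene, and 1 point per pair of arrays with no error. On the left, the HIF2α-KD array minus the control array in hypoxia (red circles) and in normoxia the same difference of labels (blue squares). On the right, hypoxia minus normoxia under the HIF2α-KD label (red circles) and in control cells (blue squares). Dashed lines mark a 2-fold difference. *MMP13*, *PLAU*, *TIMP3* and the brightest probe set of *MMP9* have points on opposite sides of 0 in each panel. The second probe set of *MMP9* lies near 0.

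The 4 comparisons differed in which of the 7 kept genes stood out. In hypoxia, *PLAU* and *TIMP3* were at least 2-fold lower on the HIF2α-KD array than on the control array and none was 2-fold higher, against 0.881% of all genes lower, 0.102% higher and 0.983% in either direction. The median over the 7 genes was -0.34, and that over all genes was -0.04. In normoxia, *MMP13*, *MMP9* and *PLAU* were at least 2-fold higher on the array labelled HIF2α-KD and none was 2-fold lower, against 0.614% of all genes higher, 0.543% lower and 1.16% in either direction. The median over the 7 was 0.52, and that over all genes was -0.04. The genes were chosen with these differences known, so nothing is read from these counts.

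Between hypoxia and normoxia under the HIF2α-KD label, *MMP13*, *MMP9* and *PLAU* were at least 2-fold lower, against 0.42% of all genes lower and 1.8% in either direction, and the median over the 7 was -0.76 against 0.02 over all. In control cells, *MMP13* and *PLAU* were at least 2-fold higher in hypoxia, against 3.04% of all genes higher and 3.58% in either direction, and the median was 0.90 against 0.03. Each of these comparisons shares an array with each knockdown comparison, so a high value on 1 array shows in a pair of them.

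The knockdown difference in hypoxia minus that in normoxia was -3.43 for *MMP13*, -2.99 for *PLAU*, -2.62 for *MMP9* and -1.66 for *TIMP3*. These 4 of the 7 kept genes lay below -1, against 1.79% of all genes, and 2.55% lay past 1 in either direction. The value was -0.48 for *MMP2*, -0.02 for *TIMP1* and 0.36 for *TIMP2*. Over all genes its median was -0.003 and 95% of genes lay within 0.80 of 0. This double difference uses all 4 arrays and leaves no degree of freedom for a test.

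**Figure D3:**
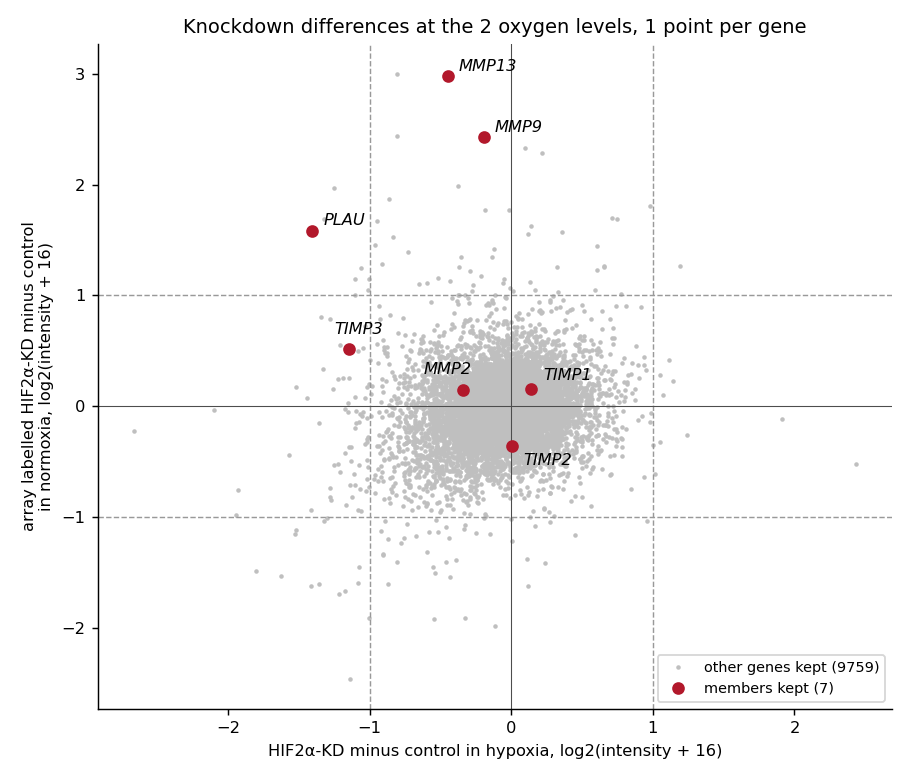
Knockdown difference in hypoxia on the horizontal axis and in normoxia on the vertical axis, both of log2(intensity + 16), for 9766 kept genes with 1 point each. The 7 kept members are red and named, and dashed lines mark 2-fold differences. *PLAU* lies at -1.40 and 1.58, beyond both lines, *MMP13* and *MMP9* lie high, at -0.45 and -0.19 on the horizontal axis, and *TIMP3* lies left of -1.

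The genes with profiles most like those of *MMP13* and *MMP9* were sought over the 4 arrays. Each gene entered through its brightest kept probe set. The other kept probe set of *MMP9*, with a double difference of -0.03, does not share the *MMP9* profile used here. The measure was the Euclidean distance between profiles of log2(intensity + 16), each centred on its own mean, so that a small value means nearly the same differences. Nearest to *MMP13* was *CCL2*, a monocyte chemokine gene, at a distance of 0.29, followed by *MMP9* (0.47), the serine protease gene *PRSS23* (0.60), the apoptosis inhibitor gene *BIRC3* (0.77) and the neutrophil chemokine gene *CXCL8* (0.79). *CCL2* read 1292 and 2269.6 on the HIF2α-KD and control arrays in hypoxia, and in normoxia 7958 on the array labelled HIF2α-KD against 982 in control cells. *CXCL8* read 24.45 and 36.4 in hypoxia and 160.5 and 28.3 in normoxia, in the same order of arrays. Its 24.45 and 28.3 lay just above the 95th percentiles of the reporters there, 24.2 and 27.2, so its distance is uncertain. *PLAU* was the 14th nearest to *MMP13* at 1.30, *TIMP3* the 409th at 1.92, and *MMP2*, *TIMP1* and *TIMP2* lay at 2.20 to 2.47. A flat profile would lie at 2.21.

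Nearest to *MMP9* was *PRSS23* (0.32), then *MMP13* (0.47), the transcription factor gene *ZEB1* (0.53), the transporter gene *SLC4A11* (0.57) and *SNAP91* (0.62), for a clathrin assembly protein. *PRSS23* had intensities of 421 and 393 on the HIF2α-KD and control arrays in hypoxia, and in normoxia of 1451 on the array labelled HIF2α-KD against 275 in control cells. *ZEB1* was dim, with 28.3 and 34.4 in hypoxia and 79.4 and 11.9 in normoxia, in the same order of arrays. These profiles have 4 points and share the same arrays, and each of the genes named here was highest on the normoxic array labelled HIF2α-KD.

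**Figure D4:**
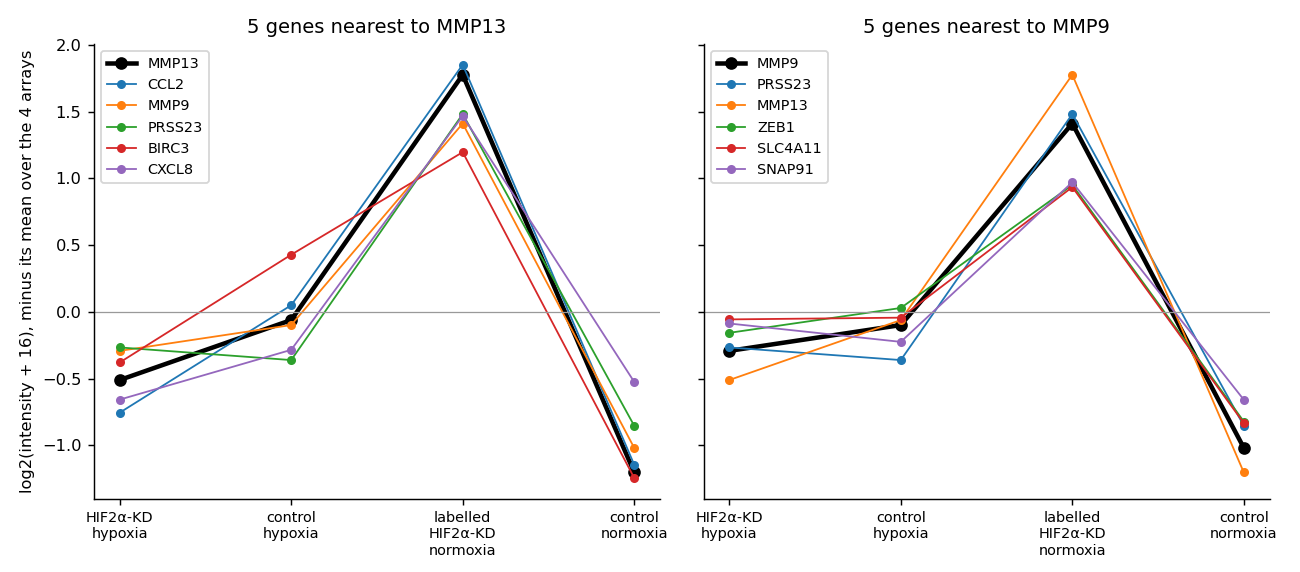
Profiles over the 4 arrays of log2(intensity + 16) minus each gene's own mean, for *MMP13* and its 5 nearest genes on the left and *MMP9* and its 5 nearest on the right, with lines that join the points of a gene. Each point is 1 array and there is no error. Each gene is shown at its brightest kept probe set, and every profile peaks on the normoxic array labelled HIF2α-KD.

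Of 18 other genes of the plasminogen system, 12 were kept, and none reached 2-fold in any of the 4 comparisons. Their median knockdown difference was -0.16 in hypoxia and 0.08 in normoxia. Their median hypoxia difference was 0.07 under the HIF2α-KD label and 0.31 in control cells, where the values ran from -0.41 for *PLAT* to 0.91 for *LRP1*. *SERPINE2*, which encodes an inhibitor of urokinase and thrombin, read 1683 and 1999 on the HIF2α-KD and control arrays in hypoxia, and in normoxia 1753 on the array labelled HIF2α-KD against 1208 in control cells. Its knockdown difference was -0.25 in hypoxia and 0.53 in normoxia. *TFPI2*, for an inhibitor of plasmin and other serine proteases, differed by -0.87 in hypoxia and by 0.53 in normoxia. *TFPI2* was the 1 gene of this list whose double difference passed -1, at -1.41. *PLAT*, the tissue plasminogen activator gene, was dim, between 9.85 and 28.8. Its control values, 9.85 in hypoxia and 18.2 in normoxia, lay below the 95th percentile of the reporters on those arrays. *PLGRKT*, a plasminogen receptor gene, differed by -0.67 in hypoxia and by -0.29 in normoxia. *LRP1*, for an endocytic receptor, differed by -0.33 in hypoxia and by 0.44 in normoxia at its brightest probe set, whose normoxic control value, 24.3, lay below the 95th percentile of the reporters. A second kept probe set of *LRP1* ran the other way, with 0.20 in hypoxia and -0.32 in normoxia. It gave -0.07 for hypoxia against normoxia in control cells, so no direction is given for *LRP1*. The annexin gene *ANXA2* and its partner *S100A10*, whose products hold plasminogen at the cell surface, were bright, between 13519 and 17253 and between 14056 and 15067.

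A linear model over the 4 arrays with knockdown and oxygen as additive terms (limma, 1 residual degree of freedom) was fitted to all 9766 genes and is given for the lists beside the members. After Benjamini-Hochberg adjustment it called 0 genes for knockdown (0%), with 206 higher and 734 lower at an unadjusted p under 0.05, and 281 for oxygen (2.88%). Of 10 alternatives, 5 called between 4 and 21 genes for knockdown. It called none of the 12 plasminogen genes for either term, and unadjusted 1 for knockdown and 2 for oxygen. An effect of knockdown that turns round with oxygen goes into the residual of this model.

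Of 18 other metalloproteinase genes, 15 had a probe set and 3 were kept. These were *MMP17*, *MMP28* and *MMP11*, none 2-fold different in any comparison and none called by limma. *MMP28*, for an epithelial metalloproteinase, read 33.9 and 40.2 on the HIF2α-KD and control arrays in hypoxia, and in normoxia 65.05 on the array labelled HIF2α-KD against 67.6 in control cells. Its hypoxia differences were -0.70 under the HIF2α-KD label and -0.57 in control cells. *MMP17* differed by 0.06 between HIF2α-KD and control cells in hypoxia and by -0.60 in normoxia. Of 17 ADAM and ADAMTS genes, related metalloproteinases that shed cell surface proteins or cut proteoglycans, 6 were kept. None of them reached 2-fold or was called by limma. Their knockdown differences lay between -0.21 and 0.53 in hypoxia and between -0.40 and -0.01 in normoxia. The 0.53 was that of *ADAMTS9*, whose value on the hypoxic control array, 13.7, was not above the reporters, and the -0.40 was that of *ADAMTS6*.

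Among 12 other regulators of metalloproteinases, 4 were kept. *CD44*, for a hyaluronan receptor that binds the *MMP9* product at the cell surface, read 719 and 1233 on the HIF2α-KD and control arrays in hypoxia, and in normoxia 628 on the array labelled HIF2α-KD against 542 in control cells. The hypoxia difference of *CD44* was 0.19 under the HIF2α-KD label and 1.16 in control cells, at the brightest of 3 probe sets. With each gene at its brightest probe set, the 1.16 was the only value of the list past 2-fold. The second probe set of *CD44* gave -0.18 and 1.12, and the dimmest -0.49 and 0.56. No direction is therefore given for *CD44* under the HIF2α-KD label. *THBS1*, for thrombospondin, differed by -0.10 between HIF2α-KD and control cells in hypoxia and by 0.74 in normoxia. *PCSK5*, a proprotein convertase gene, differed by 0.69 in hypoxia and 0.47 in normoxia at the brightest of its 6 probe sets. The second brightest gave 0.63 and 0.28, whereas the fourth, also kept, gave -0.53 and -0.49, so no direction is given. *BSG*, for an inducer of metalloproteinases, differed by -0.12 in hypoxia and -0.26 in normoxia. limma called none of the 4. *RECK*, for a membrane inhibitor of metalloproteinases, lay between 6.42 and 9.67 and was not kept.

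Transcription factors with known sites in metalloproteinase promoters were less uniform. Of 15 listed, 7 were kept. *FOS* and *JUN*, for subunits of AP-1, were lower under the knockdown label at each oxygen level. The other kept AP-1 genes had knockdown differences closer to 0, of -0.17 in hypoxia and 0.19 in normoxia for *FOSL2* and of -0.04 and -0.19 for *JUNB*. *FOS* read 1141 and 1718 on the HIF2α-KD and control arrays in hypoxia, and in normoxia 482 on the array labelled HIF2α-KD against 1081 in control cells, with knockdown differences of -0.58 and -1.14. Its dimmer kept probe set gave -0.25 in hypoxia and -0.45 in normoxia. *JUN* read 1062 and 2422 in hypoxia and 621 and 838 in normoxia, with knockdown differences of -1.18 and -0.42. Both rose with hypoxia in the limma fit. The fitted difference was 0.94 for *FOS* (adjusted p = 0.0439) and 1.14 for *JUN* (adjusted p = 0.0375). Over 10 alternatives the adjusted p of *FOS* lay between 0.0194 and 0.111, with 6 calls, and that of *JUN* between 0.0132 and 0.107, with 7. *NFKB1*, an NF-κB subunit gene, differed by -0.75 in hypoxia and by 0.29 in normoxia at the brightest of 3 probe sets, with a double difference of -1.05. The second brightest gave 0.002 and 0.27, with a double difference of -0.27. The dimmest gave -0.70 and 0.37, with -1.07, so the probe sets did not share the difference in hypoxia. *RUNX2*, a factor known to act on *MMP13* in bone and cartilage, was dim, between 25.3 and 33.7.

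Of 11 genes for ligands known to induce metalloproteinases, 5 were kept. *TGFB2*, a transforming growth factor gene, read 1704 and 1843 on the HIF2α-KD and control arrays in hypoxia, and in normoxia 1411 on the array labelled HIF2α-KD against 697.5 in control cells. Its knockdown difference was -0.11 in hypoxia and 1.00 in normoxia, at the 2-fold mark. Its hypoxia difference was 0.27 under the HIF2α-KD label and 1.38 in control cells. *HBEGF*, for a ligand of the EGF receptor, differed by -0.99 between HIF2α-KD and control cells in hypoxia and by -0.08 in normoxia. The interleukin genes *IL1B* and *IL6* were not kept, with highest intensities of 22.0 and 27.3. limma called none of the 5.

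Markers of other cell types that make these enzymes were read beside the members. Of 5 neutrophil markers 1 was kept, *S100A8*, and the summed intensity of the 5 was 115 and 106 on the HIF2α-KD and control arrays in hypoxia, and in normoxia 97.2 on the array labelled HIF2α-KD against 88.9 in control cells. The defining neutrophil genes *MPO* and *ELANE* lay between 3.57 and 17.7 and between 1 and 4.68, at the level of the reporters. The 6 macrophage markers were kept but dim, and their sum was 199 and 146 in hypoxia and 201 and 195 in normoxia, in the same order of arrays. Of 7 fibroblast markers 1 was kept, *PDGFRA*, which limma called higher in hypoxia, in 6 of 9 alternatives too, and the sum was 149 and 214.5 in hypoxia and 106 and 103 in normoxia. The collagen gene *COL1A1* lay between 1.54 and 8.16 at its brightest probe set. Of 5 endothelial markers 1 was kept, *CDH5*, and the sum lay between 118 and 145.5 on the 4 arrays. Of 8 epithelial markers 5 were kept, and limma called *CDH1*, the E-cadherin gene, higher in hypoxia. *CDH1* read 81.4 and 119 on the HIF2α-KD and control arrays in hypoxia, and in normoxia 18.9 on the array labelled HIF2α-KD against 15.45 in control cells. These normoxic values lay below the 95th percentiles of the reporters on those arrays, 20.6 and 27.2. The size of the hypoxia difference of *CDH1* is therefore uncertain. The part of these markers in the values of the members was not tested.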

How the data were processed

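RNA from MDCK strain II cells was measured on 4 canine Affymetrix arrays, 1 per condition. The authors deposited 1 linear signal intensity per probe set and array, with a floor of 1 and array medians of 28.2 to 29.1. How they were scaled and corrected for background, and in which software, was not given in the sources used here. Probe sets with 1 gene symbol in the platform annotation (29254 of 42924) were used. A probe set was kept where its highest intensity reached the table median, 28.64, and the brightest kept probe set represented a gene. Differences were taken on log2(intensity + 16) with no further scaling. For lists other than the members, limma 3.58.1 (R 4.3.3) was fitted to all 9766 kept genes with additive knockdown and oxygen terms, 1 residual degree of freedom and a mean-variance trend, and p-values were adjusted by Benjamini-Hochberg. It was tested on simulated data with additive knockdown steps. That test does not cover a knockdown effect that differs between oxygen levels. Each of these p-values rests on 4 arrays, whose number limits the precision. The named genes were all members, *EPAS1*, list genes past 2-fold, up to 4 kept genes per list and comparison among those with the largest difference, and the 5 nearest profiles. Other list genes were named after their values were seen. Members and lists were chosen with earlier results of these data known. *PLAUR* has no probe set with 1 symbol and is not analysed here. A planned promoter motif search was not made, since no sequence was used here. Alternatives were another normalization, pseudocount, filter, threshold, probe set summary and variance fit.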

Additional observations from a re-analysis of the deposited data

Results flagged for a closer look

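*PLAU* and *MMP13* differed by at least 2-fold in opposite directions under the same contrast at separate pairs of arrays. The knockdown difference of *PLAU* was -1.40 in hypoxia and 1.58 in normoxia on the scale of log2(intensity + 16). The hypoxia difference of *PLAU* was -1.57 under the HIF2α-KD label and 1.42 in control cells. The hypoxia difference of *MMP13* was -2.29 under the HIF2α-KD label and 1.14 in control cells. With 1 array per condition these oppositions were not tested. The 3 contrasts use the same 4 arrays, and *EPAS1* was not lower on the normoxic array labelled HIF2α-KD.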

How the results depend on the processing

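Of the values of single members under the alternatives, 267 stayed on their side of the 2-fold mark, 2 passed it and 1 no longer did. No value past 2-fold changed direction, and 3 values near 0 changed sign. These were the knockdown difference of *MMP9* in hypoxia, 0.00085 with the mean of its probe sets, and the double difference of *TIMP1*, 0.03 with quantile normalization and 0.0012 with a pseudocount of 64. *MMP9* in hypoxia against normoxia gave 1.22 in control cells with a pseudocount of 1, and -0.84 under the HIF2α-KD label with the mean of its kept probe sets, and *TIMP3* in control cells gave 1.20 with that mean. The knockdown difference of *MMP9* in normoxia lay between 1.33 and 2.92, and that of *MMP13* between 2.87 and 3.04. At 1.5-fold, 4 members differed between hypoxia and normoxia in control cells, against 2 at 2-fold. Over all genes, the number at least 2-fold different by knockdown in hypoxia was 96, and 227 with a pseudocount of 1, 37 with 64, 55 with the filter at the 75th percentile and 639 at 1.5-fold. By knockdown in normoxia it was 113, and 237, 65 and 587 with a pseudocount of 1, of 64 and at 1.5-fold. Between hypoxia and normoxia it was 176 under the HIF2α-KD label, and 336, 98 and 797 with those settings, and 350 in control cells, and 597, 193 and 1418. For the double difference it was 249, and 506 and 106 with a pseudocount of 1 and 64, and 136 with the stricter filter. limma called 0 genes for knockdown, and 15 with median centring, 10 and 4 with a pseudocount of 1 and 64, 16 with quantile normalization and 21 with robust variances. For oxygen it called 281, and 163 with cyclic loess, 70 without the filter, 486 with quantile normalization, 103 without the trend and 458 with robust variances. Of the oxygen calls, 240 were higher and 41 lower in hypoxia, whereas quantile normalization gave 327 higher, 159 lower. The cause of these shifts was not tested. No paired analysis was possible because each condition has 1 array. No replicate could be left out, so array-to-array error is unknown.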
